A study of Mus musculus with 2 samples.

Results

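Lens crystallins, the proteins that fill the transparent fibre cells of the eye lens, were followed here as tissue antigens of the thymus. Their 10 genes (2 alpha, 6 beta and 2 gamma crystallins) were selected from a list of gene symbols, out of 23411 genes measured. Where a gene had several transcripts, the one with most reads in both tables together was used, which applied to Crybb3 alone. The study sequenced poly-A RNA of medullary thymic epithelial cells (mTEC) from the thymus of B6 mice. One group was the MHC-II high and the other the MHC-II low fraction, both sorted from the same pool of 3 mice, so that each group holds 1 library. The labels name no treatment, mutation or age.

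Alpha crystallins are small heat shock proteins that hold unfolding proteins in solution. Beta and gamma crystallins form a second family, of stable structural proteins with a shared fold. Cryaa and most beta and gamma crystallins are largely restricted to the lens, whereas Cryab also serves as a stress-inducible chaperone in muscle, heart, glia and many epithelia. Mature mTEC, which carry much surface MHC-II, transcribe many tissue-restricted genes under the regulator Aire and so display their products to developing T cells. In lens, the transcription factor c-Maf acts on crystallin promoters through Maf recognition elements, and Pax6, Sox1, Sox2, Prox1 and Hsf4 take part in the same programme.

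RefSeq promoters of assembly GRCm38.p6 were matched for 9 of the 10 genes, all but Cryab. The 250 bases upstream of the start are shown for 5 of them, 5′ to 3′ on the strand of the gene. Cryaa (chr17:31677681-31677930, plus strand) is shown as the gene with the largest excess in the MHC-II high library. Cryba4 (chr5:112252519-112252768, minus strand) and Crybb1 (chr5:112255570-112255819, plus strand) are neighbouring genes that were both higher there. Crybb2 (chr5:113070118-113070367, minus strand) and Crybb3 (chr5:113081585-113081834, minus strand) are neighbours that differed from each other. Capitals mark the letters TGCTGA, part of a Maf recognition element, or their reverse complement TCAGCA, and the TATA box letters TATAAA.
Cryaa: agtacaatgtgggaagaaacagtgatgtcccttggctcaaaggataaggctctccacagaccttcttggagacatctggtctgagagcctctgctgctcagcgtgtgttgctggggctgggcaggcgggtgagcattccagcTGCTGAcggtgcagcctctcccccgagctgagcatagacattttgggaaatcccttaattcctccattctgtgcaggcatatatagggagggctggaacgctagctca
Cryba4: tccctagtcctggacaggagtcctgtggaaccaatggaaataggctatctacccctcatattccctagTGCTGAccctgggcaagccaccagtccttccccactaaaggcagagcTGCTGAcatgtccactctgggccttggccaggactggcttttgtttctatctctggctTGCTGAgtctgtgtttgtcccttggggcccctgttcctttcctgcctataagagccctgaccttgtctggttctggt
Crybb1: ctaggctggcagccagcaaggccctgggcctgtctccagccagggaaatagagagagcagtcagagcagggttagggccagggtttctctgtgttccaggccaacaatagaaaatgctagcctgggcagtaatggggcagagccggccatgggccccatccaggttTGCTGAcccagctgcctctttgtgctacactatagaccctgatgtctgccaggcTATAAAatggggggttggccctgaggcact
Crybb2: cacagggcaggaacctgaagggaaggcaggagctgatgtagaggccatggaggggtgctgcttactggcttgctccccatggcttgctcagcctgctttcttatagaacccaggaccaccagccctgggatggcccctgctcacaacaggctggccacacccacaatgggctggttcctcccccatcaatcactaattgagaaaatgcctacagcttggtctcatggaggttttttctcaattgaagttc
Crybb3: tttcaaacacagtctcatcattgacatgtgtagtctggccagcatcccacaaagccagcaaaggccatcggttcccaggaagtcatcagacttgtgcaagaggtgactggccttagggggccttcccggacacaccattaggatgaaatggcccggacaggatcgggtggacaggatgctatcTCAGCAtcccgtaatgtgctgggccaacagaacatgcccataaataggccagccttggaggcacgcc

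TGCTGA, searched on both strands, was found upstream of 7 of the 9 crystallin genes, among them Cryba4 with 3 matches. Of 32851 promoters of the same length, 16.1% held it. Crybb2 and Crygd were the 2 without it. TATAAA on the strand of the gene and starting 40 to 21 bases upstream was present for Cryba1, Crybb1 and Crygs, and in 1.99% of all promoters. TATAAA anywhere on either strand was in 12.4% of all promoters and in the same 3 crystallin promoters. The AP-1 letters TGANTCA were found for Cryba2 and Crygs (6.75% of all promoters), and in Crygs 1 of the 2 matches overlapped TCAGCA. Of the paired heat shock units, TTCNNGAA was found for Cryba1 alone (7.17% of all promoters) and GAANNTTC for none of the 9 (6.69%). GC content of the 9 windows ran from 42.0% to 58.8%, with a median of 54.4% against 52.4% over all promoters. These are matches of letters, and their part in the levels was not tested.

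In the MHC-II high library, called the high library from here on, 138368543 reads fell on genes, and in the MHC-II low or low library 56077471. Levels are given as CPM, read counts relative to library totals after TMM scaling, which sets those totals so that most genes come out near equal. A gene was called higher or lower when the whole exact 95% Clopper-Pearson interval of its ratio lay beyond 2-fold and its mean CPM over both libraries was at least 1. Intervals cover counting error only, and no replicate stands behind them, so no p-value is given. They may be too narrow even for counting error. Reads carry no molecular identifiers, and the sources used here do not say whether mates of a pair were counted separately. Aire was at 571 against 21.04 CPM (MHC-II high first here and below), and the epithelial marker gene Epcam at 621 against 586 CPM. In the low library the 4 endothelial markers summed to 255 CPM (13.5 in the high one, 4 of 4 lower) and the 6 fibroblast and mural cell markers to 1043 CPM (399.9, with 3 of 6 lower). In the high library the 7 dendritic cell and macrophage markers with a value summed to 406 CPM (88.9 in the low one, with 5 of 6 past the minimum higher). Erythroid markers summed to 59.9 against 2140 CPM, tuft-like cell markers to 273 against 1099 CPM, T cell markers to 35.2 against 40.2 CPM, B cell markers to 9.55 against 3.58 CPM and glial markers to 15.4 against 10.4 CPM. The T cell markers differed in direction. Cd4 was called higher in the high library (15.3 against 5.59 CPM). Cd3e, Cd3d, Cd8a and Lck had fewer CPM there and were not called, and in the deposited RPKM Cd8a alone of them was lower. No marker of these lists was at 0.

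All 10 crystallin genes had reads in both libraries, and 9 passed the minimum. Of these 9, Cryaa, Cryba4, Crybb1, Crybb2 and Crygs were higher in the high library, where 14.5% of 17438 genes were higher. Cryab alone was lower, where 10.9% of genes were lower. Cryba1, Cryba2 and Crybb3 passed neither limit. Cryba1, Crybb2 and Crygs were below 1 CPM in the low library and passed through the high one, so their place among the 9 is tied to their direction. Without a minimum, 5 of the 10 were higher (12.1% of 23411 genes) and 2 lower, Cryab and Crygd (16.3%). The median log2 ratio over all 10 genes was 1.39, and that of all 23411 genes was −0.18.

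**Figure D1:**
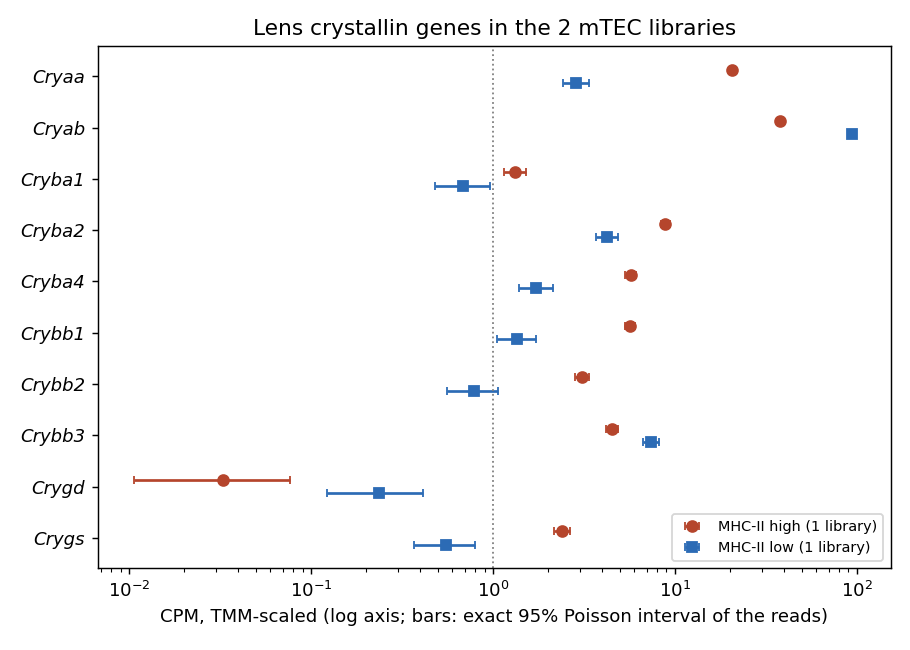
Level of each crystallin gene in CPM on a log axis, circles for the MHC-II high and squares for the low library, with exact 95% Poisson intervals of the reads; the dotted line is 1 CPM. Cryab, Crybb3 and Crygd lie higher in the low library (Crybb3 does not with the read totals of the deposited RPKM) and the other 7 genes lie higher in the high library.

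Among the alpha crystallins, Cryaa, the lens-restricted chaperone (transcript NM_013501), had 3135 reads in the high library against 146 in the low one. That is 20.5 against 2.88 CPM, a 7.13-fold excess (interval 6.04 to 8.48). Its log2 ratio of 2.83 lay above that of 97.3% of the genes past the minimum. Per length, it stood above 81.0% of all genes in the deposited RPKM of the high library and above 47.1% in the low one. In the low library it was in the middle of the expression range and in the high library in its upper part. An antisense gene of the GENCODE annotation overlaps 194 exon bases of the Cryaa transcript, and reads of the pair cannot be told apart without strand.

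Cryab (NM_009964), the stress-inducible alpha crystallin, went the other way. It had 5763 reads and 37.7 CPM in the high library and 4791 reads and 94.4 CPM in the low one, 2.50-fold lower in the high library (interval 2.41 to 2.60). With unscaled read totals its log2 ratio was −1.04 and with those of the deposited RPKM −0.32, and in both cases it was no longer called. In both libraries it was the most abundant of the 10 genes, above 90.2% and 96.3% of all genes per length. The level in a bulk sample does not show whether fewer cells express a gene or each cell holds less of its RNA. Lower in the high library, like Cryab, were 4 of 4 endothelial, 4 of 4 tuft-like cell and 2 of 3 erythroid markers, and 2 of 3 markers of CCL21-expressing mTEC (sums of 609.8 against 7101 CPM). The shares over all 17438 genes past the minimum were 10.9% lower and 14.5% higher. Of the fibroblast and mural cell markers the 3 lower ones were the fibroblast genes Col3a1, Dcn and Pdgfra, while the mural cell genes Pdgfrb (40.8 against 23.3 CPM) and Rgs5 (235 against 175 CPM) had more CPM in the high library. Of 5 thymic epithelium markers, 2 were lower, the basal keratin genes Krt5 (768 against 5863 CPM) and Krt14 (293 against 2306 CPM), and 1 was higher, the transcription factor gene Foxn1 (112 against 34.5 CPM). The part of these cells in the difference of Cryab was not tested. An exon of Hspb2, another small heat shock gene, overlaps the GENCODE transcript of Cryab by 252 bases on the opposite strand. Hspb2 had 657 and 293 reads, few beside those of Cryab.

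The contrast between the 2 alpha crystallins does not depend on how the libraries are scaled. Within the high library the deposited RPKM of Cryaa was 0.548 times that of Cryab, and within the low library 0.0307 times. The ratio of Cryaa to Cryab was 17.8-fold larger in the high library (exact interval of the odds ratio 15.0 to 21.3). Their coding sequences were 61.5% identical in a global alignment. All genes but Crygd had a larger ratio to Cryab in the high library by the whole interval, 8 of 9, from 1.52-fold for Crybb3 (1.33 to 1.74) to that of Cryaa. For Crygd the ratio to Cryab was 0.346 times as large, with limits of 0.0955 and 1.06.

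The 3 acidic beta crystallins all had more CPM in the high library, by different amounts. Cryba4 had 875 reads (5.73 CPM) against 88 (1.73 CPM) and was 3.30-fold higher (interval 2.65 to 4.16). Cryba2 had 1357 reads (8.88 CPM) against 216 (4.25 CPM), and its ratio of 2.09 had limits of 1.81 and 2.42, which take in 2-fold. Cryba1, whose transcript encodes both the A3 and the A1 protein, had 203 reads (1.33 CPM) against 35 (0.689 CPM), for a ratio of 1.93 (interval 1.34 to 2.84). The intervals of Cryba1 and Cryba2 lay above 1 but did not clear 2-fold, so neither was called. With unscaled read totals Cryba2 was called higher.

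Of the 3 basic beta crystallins, 2 were called higher and the third leaned the other way. Crybb1 had 869 reads (5.69 CPM) against 69 (1.36 CPM), a 4.18-fold excess in the high library (interval 3.27 to 5.43). Crybb2 had 472 reads (3.09 CPM) against 40 (0.788 CPM), a 3.92-fold excess (2.84 to 5.56). Crybb3 had 691 reads (4.52 CPM) against 377 (7.43 CPM), and was 1.64-fold lower in the high library (1.44 to 1.86), short of the 2-fold limit. That direction turned, to a log2 ratio of 0.29 from −0.72, when scaled by the totals that the deposited RPKM imply. The second listed Crybb3 transcript, which shares its reads, had 674 and 370 reads. In the low library Crybb3 was second to Cryab per length, at an RPKM of 3.20.

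Crybb2 and Crybb3 lie next to each other in the RefSeq gene order, and their coding sequences were the most alike of any pair among the 10 genes, at 64.2% identity. The ratio of Crybb2 to Crybb3 reads was 6.43-fold larger in the high library (exact interval 4.53 to 9.34), a comparison that library scaling cannot move. Cryba4 and Crybb1 are neighbours as well, and their ratio to each other was 0.790 times as large in the high library, with limits of 0.559 and 1.11. No difference between them was therefore detectable at this depth. Among the 16 other genes directly beside a crystallin gene, 14 passed the minimum, of which 3 were higher in the high library and 0 lower, or 21.4% against the 14.5% of all genes. They were Nufip2 beside Cryba1, Cfap65 beside Cryba2 and Dgkg beside Crygs. The genes flanking Cryaa, U2af1 and Sik1, had log2 ratios of −0.31 and 0.63, the first of which is positive with the read totals of the deposited RPKM.

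**Figure D2:**
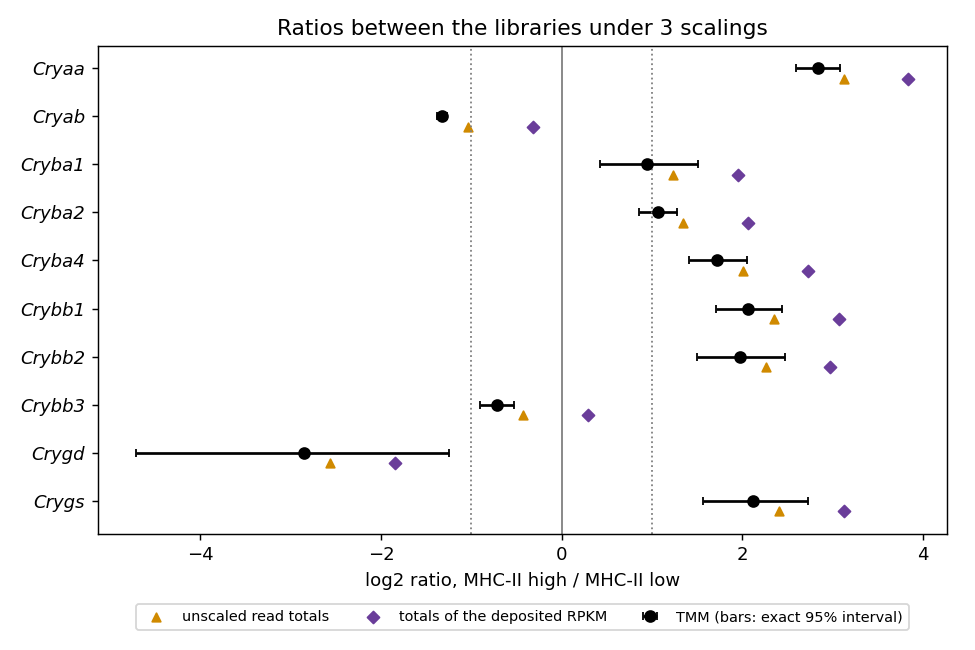
Log2 ratio between the MHC-II high and MHC-II low libraries for each crystallin gene; circles with exact 95% intervals use TMM scaling, triangles unscaled read totals and diamonds the read totals of the deposited RPKM, and dotted lines mark 2-fold. Every gene shifts by the same amount with the scaling, and of the 10 genes Crybb3 alone changes side, to 0.29.

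The gamma crystallins were the least abundant group. Crygs, the gamma crystallin that is also made in the adult lens cortex, had 367 reads (2.40 CPM) against 28 (0.552 CPM) and was 4.35-fold higher in the high library (interval 2.96 to 6.64). Crygd, a fibre cell crystallin, had 5 reads (0.0327 CPM) against 12 (0.236 CPM), below the minimum of 1 CPM. Its log2 ratio of −2.85 rests on these few reads, and its interval ran from −4.71 to −1.24. Of the 50-base words of the Crygd transcript, 34.0% also occur in other gamma crystallin transcripts such as Cryge and Crygf, so its reads are uncertain. The other 9 genes shared no such word with another transcript read on its own strand. Opposite strands were not compared, and Cryaa and Cryab overlap genes there, as given above.

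Levels per length can be ordered within each library from the deposited RPKM. In the high library the order was Cryab (22.7), Cryaa (12.5), Cryba2 (9.04), Cryba4 (5.44), Crybb1 (4.65), Crybb3 (3.90), Crybb2 (3.05), Crygs (2.42), Cryba1 (1.39) and Crygd (0.0368), and no 2 neighbours in it had overlapping Poisson intervals. In the low library the first 4 were Cryab (28.4), Crybb3 (3.20), Cryba2 (2.16) and Cryaa (0.872). From Cryaa downwards, through Cryba4, Crybb1, Crybb2, Cryba1 and Crygs to Crygd (0.133), each gene overlapped the next. Genes further apart in that order could be separated: the interval of Cryaa (0.737 to 1.03) lay above that of Crybb1 (0.432 to 0.703) and of each gene after it.

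Cryab took up 82.6% of the 5802 crystallin reads of the low library (interval 81.6 to 83.5) and 42.0% of the 13737 of the high one (41.1 to 42.8). Cryaa held 2.52% (2.13 to 2.95) and 22.8% (22.1 to 23.5). Counted per kilobase of transcript, the share of Cryaa was 2.35% and 19.1%. Among the reads of the 9 genes other than Cryab, Crybb3 led in the low library with 37.3% and Cryaa in the high one with 39.3%.

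**Figure D3:**
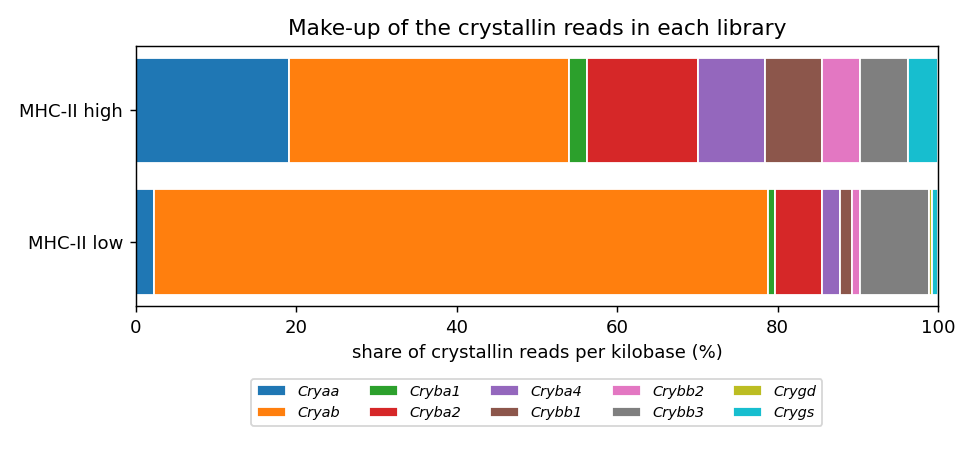
Share of each gene in the crystallin reads per kilobase, in percent, 1 bar per library. Cryab fills 76.4% of the MHC-II low bar and 34.9% of the MHC-II high bar, and Cryaa widens from 2.35% to 19.1%.

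Because of this make-up, Cryab weighs most in reads summed over the family, more so in the low library. All 10 genes together came to 89.9 CPM in the MHC-II high and 114 CPM in the low library, a log2 ratio of −0.35 (interval −0.39 to −0.30). With the read totals of the deposited RPKM the sum turned to 0.66, while Cryab stayed negative at −0.32. Without Cryab the sum was 52.2 against 19.9 CPM, 2.62-fold higher in the high library (2.45 to 2.80). Without Cryaa as well it was 31.7 against 17.0 CPM, 1.86-fold higher (1.73 to 2.00). The 6 beta crystallins summed to 29.2 against 16.2 CPM. Mature mTEC markers were higher in the same library, 5 of 5, with sums of 1340 against 223 CPM. Of the dendritic cell and macrophage markers given above, 5 of the 6 past the minimum were higher as well, but not Itgax. Over all 17438 genes past the minimum, 14.5% were higher. The part of either group of cells in the crystallin differences was not tested.

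**Figure D4:**
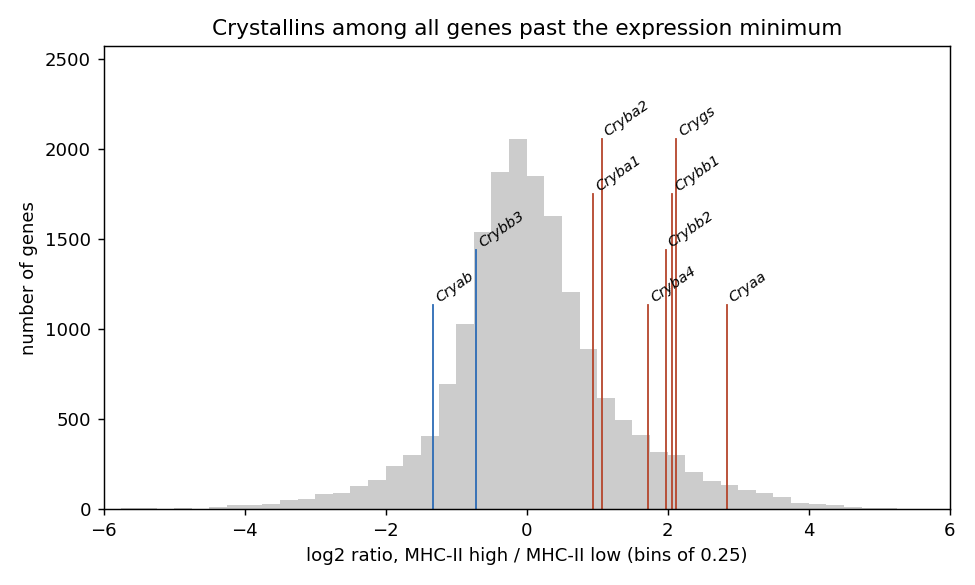
Histogram of log2 ratios of the 17438 genes past the minimum (grey, number of genes per bin), with the 9 crystallin genes past it drawn as labelled lines. Cryaa lies at 2.83 and Cryab at −1.32, on opposite sides of the bulk of genes.

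With 2 libraries, likeness to another gene can only mean a similar level in both. For Cryaa the 3 nearest genes in log2 CPM were Crtac1, Calb2 and Gsdmc3, the first with 3146 and 147 reads and a distance of 0.011. For Cryab they were Abhd4, F3 and Calcoco1, at distances of 0.057 to 0.069.

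Other members of the crystallin family were compared as well. Of 13 other crystallins, 8 passed the minimum, of which 2 were higher and 0 lower. Of all 17438 genes, 14.5% were higher and 10.9% lower. The median log2 ratio of the 8 was 0.27 (−0.01 over all 17438 genes). The higher ones were Crybg1, with 231 against 105 CPM (2.20-fold, interval 2.14 to 2.26), and Crybg2, 2.38-fold higher (2.15 to 2.63). Both carry beta-gamma crystallin folds but are not lens-restricted. Crygn, at 1.60 against 0.650 CPM, passed the minimum through the high library and had a ratio of 2.46 whose lower limit was 1.70. Cryl1, an enzyme of sugar metabolism, was near equal at 46.4 and 43.2 CPM. The lens gamma crystallins Cryga, Crygb, Crygc, Cryge and Crygf had between 4 and 106 reads in either library and stayed below the minimum.

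Of 9 genes of lens fibre cells other than crystallins that passed the minimum, 4 were higher in the high library and 0 lower. Of all 17438 genes, 14.5% were higher and 10.9% lower. The median log2 ratio of the 9 was 0.59. Of these 9, 4 were below 1 CPM in the low library and passed through the high one, so their place is tied to their direction. Lim2 (21 against 25 reads), Dnase2b (54 against 44) and Lgsn (136 against 50) stayed below the minimum. Their ratios were 0.279, 0.408 and 0.904 (1.81 for Lgsn in the deposited RPKM). Mip, the water channel of fibre cells, was at 6.74 against 1.48 CPM, 4.56-fold higher (interval 3.61 to 5.85). Birc7, an inhibitor of apoptosis, was 6.88-fold higher on 290 against 14 reads (4.04 to 12.7), and fell below the minimum with the RPKM totals. Tmod1, which caps actin filaments, had most reads and was at 20.6 against 13.7 CPM.

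Lens transcription regulators were called in both directions. Of 13 that passed the minimum, 2 were called higher and 2 lower, shares close to the 14.5% and 10.9% of all 17438 genes. The median log2 ratio of −0.07 turned positive with unscaled totals, with TMM factors from all genes and with the read totals of the deposited RPKM. Sox2 was at 3.79 against 1.36 CPM, 2.79-fold higher in the high library (interval 2.17 to 3.64), and Maf, which encodes c-Maf and was named after its value was seen, 2.35-fold higher (2.21 to 2.50). Meis1 was 2.70-fold lower there (2.58 to 2.83), and Prox1, also named after its value was seen, 2.63-fold lower (2.40 to 2.87). Prox1 was no longer called with unscaled totals (log2 ratio −1.11), and neither Meis1 (−0.43) nor Prox1 (−0.39) with the RPKM totals. Mafk and Meis2, with the most reads, were near equal, at 109 against 101 CPM and 105 against 110 CPM. Foxe3, a lens epithelium factor below the minimum and likewise named after its value was seen, had 32 reads against 1 (ratio 10.6, interval 1.78 to 433). Pax6 had a ratio of 0.633 (0.505 to 0.798) and Hsf4 of 0.439 (0.328 to 0.590), neither called. Sox1 (1.07, 0.662 to 1.79) and Pitx3 (0.529, 0.320 to 0.890) were below the minimum. In the deposited RPKM the ratios of Pax6, Hsf4, Sox1 and Pitx3 were 1.27, 0.879, 2.14 and 1.06. These values were also picked out after they were seen.

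Chaperone and stress genes were compared beside Cryab. Of the other small heat shock genes, Hspb1 was 4.30-fold lower in the high library (interval 4.25 to 4.35), at 313 against 1347 CPM, and was the only 1 of 5 past the minimum to be called. Hspb8 had 156 against 209 CPM and Hspb7 2.34 against 1.38 CPM. Of 10 stress response genes, Dnajb1 (2.79-fold, 2.77 to 2.81) and Jun (2.17-fold, 2.16 to 2.19) were lower in the high library and 0 were higher. Of all 17438 genes, 10.9% were lower and 14.5% higher. Hspa1a stood at 4193 against 8202 CPM and Hspa1b at 4515 against 8133 CPM. The medians of the 2 lists, −0.42 and −0.83, turned positive with the read totals of the deposited RPKM, and 1 stress gene was then called higher and 0 lower. Hspb1 was called lower under each of the 5 scalings. Jun was no longer called with unscaled totals (log2 ratio −0.83), with TMM factors from all genes (−1.002) or with the RPKM totals (−0.12), and Dnajb1 was not with the last (−0.48).

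**Figure D5:**
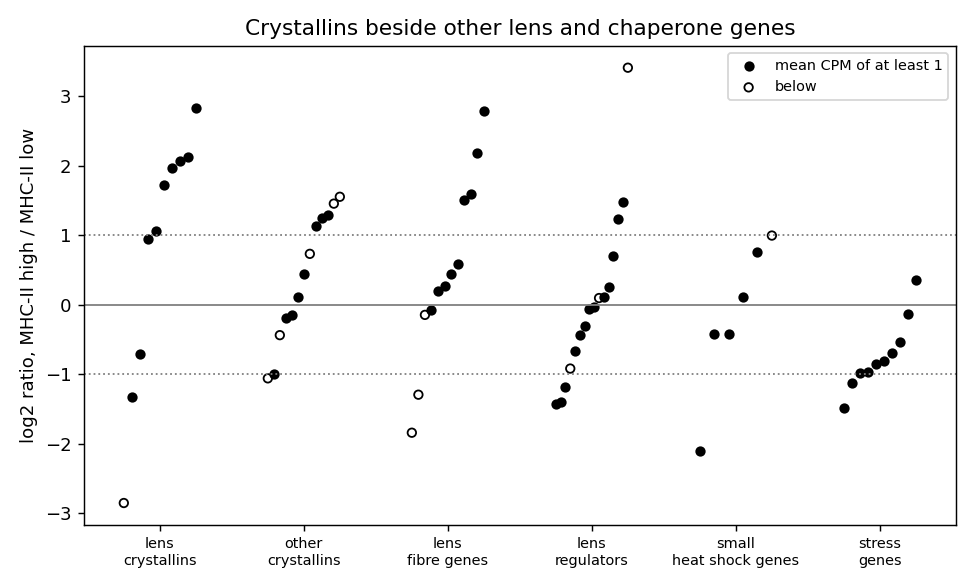
Log2 ratio between the MHC-II high and MHC-II low libraries for each gene of 6 lists (columns; genes sorted by ratio), filled where the mean CPM was at least 1 and open below; dotted lines mark 2-fold. Filled crystallins reach from −1.32 to 2.83 and small heat shock genes from −2.11 to 0.76.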

How the data were processed

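Per the labels' protocols, RNA came from sorted fractions of 3 pooled mice. Per the submitters' processing notes, the authors used build mm9, CASAVA, Bowtie 1.0.0 and bedtools. The sources used here give neither their roles and settings nor the annotation. The authors deposited, per the file headers, whole read counts, lengths and RPKM per RefSeq transcript, without strand. Stray lines (18 and 36) were left out and 840 lines of genomic copies in the high table summed. Accessions listed in 1 table only (63 and 24) or with unequal lengths (33) were left out, giving 29800. Symbols came from RefSeq (GRCm38.p6, 29233 accessions) and GENCODE vM21 (173), and 394 had none.

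TMM factors (edgeR 4.0.16, R 4.3.3) were computed over genes whose mean CPM reached 1, giving scaled totals of 152834158 and 50769789. With 1 library per group edgeR's test cannot be run. Ratios carry exact Clopper-Pearson intervals (SciPy 1.17.1). Their code was run on simulated independent Poisson counts. Such counts meet the assumption of the interval, so the run cannot show how well it holds for real reads. A count of 3 reads stands for 0. Alternatives were unscaled, RPKM and DESeq2 1.42.0 totals, other minimums, fold limits and transcripts, and leaving out Cryab and Cryaa. TMM over all genes was added after seeing the data. Named genes are the 10 crystallins, their neighbours and the 3 genes nearest in level to the 2 with most reads. Per list they are, among genes past the minimum, the 2 with most reads and the 2 with the largest size of log2 ratio in either direction. Other list genes given with values, among them Maf, Prox1 and Foxe3, were chosen after their values were seen. So were the cell type markers named singly, other than Aire. Members and lists were chosen with earlier results of these data known.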

Additional observations from a re-analysis of the deposited data

How the results depend on the processing

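Direction and call were the same in 44 of 50 recomputed single-gene ratios. All 10 were the same with DESeq2 totals (a log2 shift of 0.008), with TMM factors from all genes and with the other transcript choice. These settings differ little from the main one, and the transcript choice concerns Crybb3 alone. With unscaled totals 8 of 10 were the same, and with the RPKM totals 6 of 10. Relative to TMM, unscaled totals raised every log2 ratio by 0.29, the read totals of the deposited RPKM by 1.003 and TMM factors from all genes by 0.12; all genes shift alike. With either of the first 2, 0 crystallins passed the limit for lower, as Cryab came to −1.04 and −0.32, and Cryba2 was called higher. With the RPKM totals Cryba1 and Crygs fell below the minimum, which left 7 crystallins, and Crybb3 turned to 0.29. The log2 interval of Cryba1 was then 1.43 to 2.51, wholly beyond 2-fold, so that it stayed uncalled only through the minimum. Over all genes, calls were 57.0% higher, against 72.9% and 93.9% with these totals (7232 higher and 471 lower with the latter). The summed log2 ratio was −0.060 (unscaled), −0.23 (TMM from all genes), 0.66 (RPKM totals), 1.39 without Cryab and 0.89 without Cryab and Cryaa. With no minimum 2 crystallins were lower (3822 of all genes against 1907, with 42.6% of calls higher). A mean CPM of at least 5 left 4 crystallins, of which 1 was higher and 1 lower (1652 and 1427 of all genes). The share of Cryaa in the MHC-II high library was 19.1% per kilobase. No paired analysis was possible because each group had 1 library. Fewer than 100 reads in the low library limit 4 of the 6 beta crystallins and both gamma crystallins.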
